A study of Gossypium hirsutum with 18 samples.

Results

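UDP-glycosyltransferases are enzymes that move a sugar, usually glucose, from a UDP-sugar onto a small molecule. The 226 genes described here were taken from a table of 70478 genes of upland cotton (Gossypium hirsutum), an allotetraploid with an A and a D subgenome. A gene was included when its deposited description, ignoring case, contained "UDP-glucosyl transferase" or "UDP-glycosyltransferase" and its FPKM (fragments scaled to gene length and library size) was at least 1 in at least 3 of 18 libraries. The table describes 343 genes in these words, and 117 of them did not reach the FPKM rule. The rule used the level in any library and no comparison between groups.

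RNA was read in root and in leaf of seedlings of 3 kinds, labelled SAS, AS and CK, with 3 libraries in each of the 6 groups. CK carries the treatment label "none", and SAS and AS carry only these codes. The labels describe seedlings raised in soil and moved to alkaline solution, either 125 mM NaHCO3 or NaOH brought to the same pH, for 12 h. They do not say which solution belongs to which code, what solution the CK seedlings stood in, or the cultivar and age. Whether the 3 libraries of one group are separate plants is not recorded, and p-values here measure only the spread between libraries, which may be technical. In whole organs, fewer cells of a type and less RNA per cell cannot be told apart. Total counts were 46345805 to 66843791 per library. Photosynthesis genes taken as leaf markers (289 genes) held 0.0252% to 0.0471% of counts in roots and 0.7463% to 2.7479% in leaves. Their share in leaves was 0.7463% to 1.4566% in SAS, 2.0355% to 2.3918% in AS and 2.2362% to 2.7479% in CK, and its part in the leaf results below was not tested. Root markers, 164 genes with terms such as root hair, root meristem or CASP in their descriptions, held 0.2085% to 0.2765% of counts in SAS roots, 0.1799% to 0.203% in AS roots and 0.1443% to 0.1573% in CK roots, against 0.0831% to 0.097% in leaves. The 3 root groups did not overlap in this share, whose means had the same order as the means of the family, and its part in the root results was not tested.

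In plants these enzymes form a large family whose members glycosylate flavonoids, phenylpropanoids, hormones such as abscisic acid and the cytokinins, and foreign compounds. Adding a sugar generally makes the acceptor more soluble and less reactive, and often prepares it for storage in the vacuole. A glucose ester or glucoside of a hormone is usually inactive and can be cleaved again by beta-glucosidases. Family numbers such as 73C or 85A group the enzymes by sequence similarity, and most of what is known of their substrates comes from Arabidopsis. Enzymes that build galactolipids, starch, glycan anchors or trehalose share the sugar-donor domain and appear under the same description.

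Of the 226 genes, 86 were described by a family number, 137 only as superfamily proteins and 3 as joint glycosyltransferase and trehalose-phosphatase genes. The most frequent numbers were 85A2 and 88A1 with 12 genes each, followed by 71B6 and 85A5 with 7 each. The deposited KEGG orthology codes and these numbers were used to sort the genes into 11 classes. The 3 largest were flavonoid and anthocyanin codes (51 genes), cytokinin and 73C-type codes (31 genes) and enzymes of lipids, glycans, starch and trehalose (29 genes). Some codes name functions that a plant UDP-glycosyltransferase would not have: 16 genes carry the code of ceramide galactosyltransferase, an animal myelin enzyme, and 6 of another class the code of a nucleoporin. These codes are reported as deposited, and 48 genes carried none. The A subgenome held 99 of the genes, the D subgenome 119, and 8 lay on scaffolds of neither. The handling of reads that match an A and a D copy, or neighbouring copies, is unknown, and the values of near-identical copies are uncertain for that reason.

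Many of the genes stood close to each other, and genes outside the family could lie between them. With neighbours within the family at most 100 kb apart, 32 groups held 81 of the 226 (35.8%). The largest, on chromosome D10, held 7 genes named 85A. At 50 kb the share was 32.3%, and at 200 kb it was 37.6%. Genes nearest the FPKM rule differed little from those just excluded. The third-highest FPKM was 1.02 in Gh_A08G1982, 1.03 in Gh_A13G2050 and 1.11 in Gh_D01G0430, which were included. It was 0.961 in Gh_D08G2376, 0.972 in Gh_D13G2450 and 0.982 in Gh_A07G2053, which were not. The rule was met in 1 group only by 5 genes, 2 of them in SAS roots.

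The 226 genes together took a larger share of all counts in SAS roots than in AS or CK roots. Their share was 0.3776%, 0.4795% and 0.4687% in the SAS root libraries, 0.2285%, 0.1983% and 0.2133% in AS roots and 0.1976%, 0.1984% and 0.1912% in CK roots. All SAS root libraries lay above all AS and CK root libraries, while AS and CK roots overlapped. Without the 3 joint trehalose genes the share was 0.36% to 0.4596% in SAS roots, 0.1754% to 0.1973% in AS roots and 0.1591% to 0.1618% in CK roots, and AS roots then lay above CK roots. In leaves the share was 0.4079% ± 0.0194 in SAS, 0.3922% ± 0.0121 in AS and 0.3402% ± 0.0077 in CK (SD, n = 3 each). SAS and AS leaves overlapped, and both lay above CK leaves. A sum over genes was not tested.

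**Figure D1:**
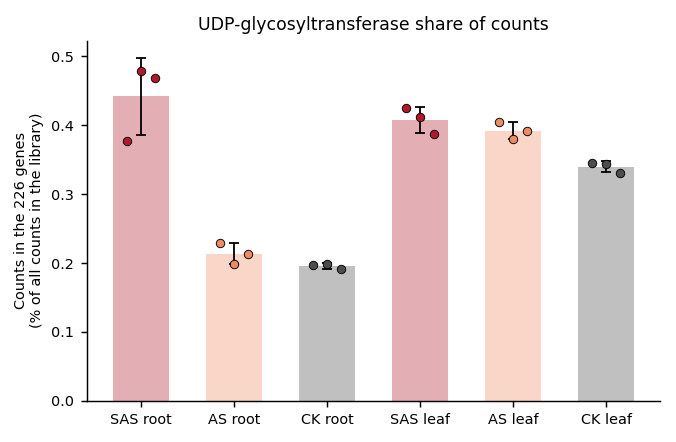
Share of all counts of a library that fell in the 226 UDP-glycosyltransferase genes (y axis, percent), by group. Points are libraries, bars are means and error bars are SD (n = 3): SAS roots average 0.4419%, AS roots 0.2134% and CK roots 0.1957%, while the leaf groups lie between 0.3402% and 0.4079%.

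A few genes made up much of the root sums. The gene Gh_A04G0582 alone held 18.9% of the family's counts in SAS roots, where 9 genes made up 50% of them. In AS roots 17.5% belonged to Gh_D07G1872, and 8 genes made up 50%. In CK roots the first place went to Gh_A03G0978, one of the trehalose genes, with 9.6%, and 16 genes made up 50%. Leaves were more even, with 17 genes for SAS and 21 each for AS and CK. Without Gh_A04G0582 the family's share of counts was 0.3589% in SAS roots, 0.2064% in AS roots and 0.1956% in CK roots.

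By class, the composition of the root pool differed between treatments. On the FPKM scale, genes with cytokinin and 73C-type codes made up 33.0% ± 0.5 of the family's summed level in SAS roots, 13.3% ± 3.8 in AS roots and 9.5% ± 0.7 in CK roots (SD, n = 3). The lipid, glycan, starch and trehalose enzymes made up 11.1% ± 0.8 in SAS roots, 30.1% ± 1.8 in AS roots and 37.7% ± 0.5 in CK roots. Flavonoid and anthocyanin codes held 10.4% ± 0.7 in SAS roots, 22.1% ± 6.2 in AS roots and 15.9% ± 1.0 in CK roots. In leaves the genes with an abscisate glucosyltransferase code held 14.1% ± 3.9 in SAS, 6.0% ± 0.5 in AS and 3.7% ± 0.1 in CK, while those with the ceramide galactosyltransferase code held 10.8% ± 1.2 in SAS, 17.7% ± 0.8 in AS and 15.9% ± 0.4 in CK. These shares are descriptions and were not tested.

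**Figure D2:**
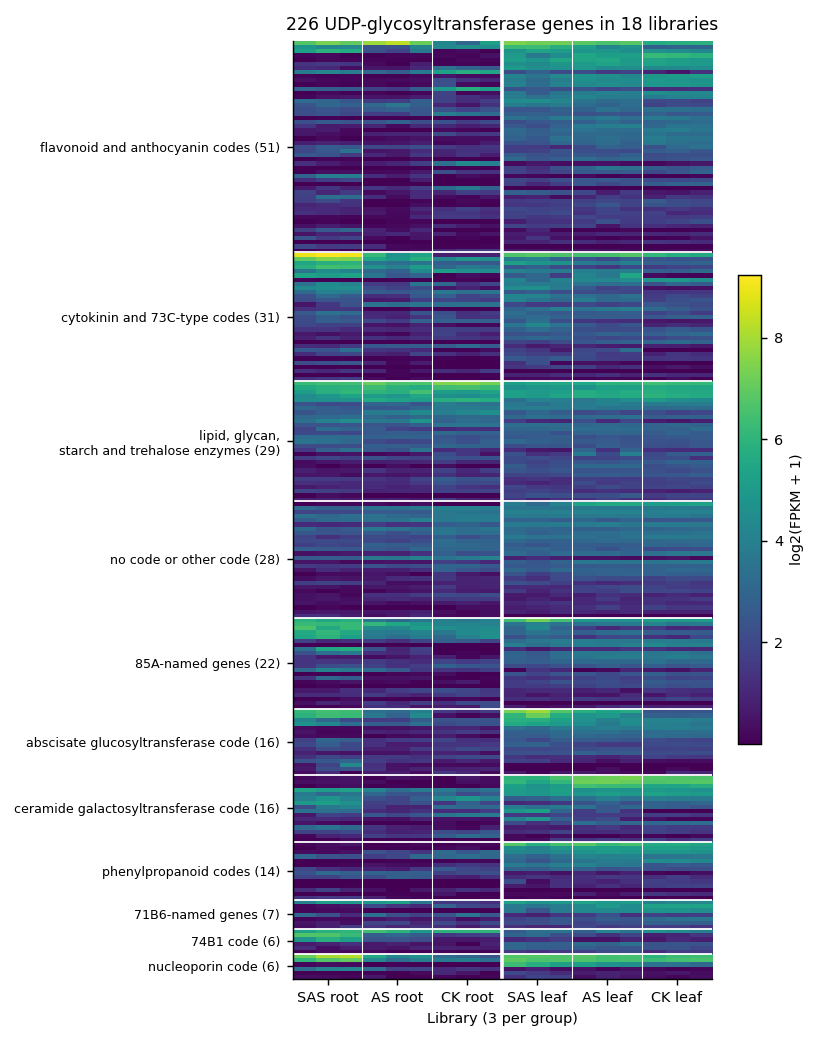
Level of each of the 226 genes (log2(FPKM + 1), colour) in the 18 libraries (columns, 3 per group), ordered by class and by mean level within a class. The brightest line in SAS roots is Gh_A04G0582 (544 FPKM, against 0.762 in CK roots), and several classes hold genes that are bright in leaves and dark in roots.

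Untreated roots and leaves already used different members. Between CK roots and CK leaves, 62 of the 226 genes were higher and 108 lower in root, or 75.2% called against 66% of the 48954 genes tested over all 18 libraries (edgeR's quasi-likelihood test, adjusted p under 0.05). Of all genes, 31.4% were higher and 34.6% lower in CK root. The median log2 difference was -0.76 for the family and -0.05 for all genes. The lipid, glycan, starch and trehalose class was the one class with more genes higher in CK root (15) than lower (6). For flavonoid and anthocyanin codes the counts were 9 higher and 32 lower of 51.

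Genes with leaf levels among the highest of the family were close to 0 in roots. The pair Gh_A11G0653 and Gh_D11G0765, both with the ceramide galactosyltransferase code, averaged 106 and 107 FPKM in CK leaves and 0.253 and 0.17 FPKM in CK roots. Gh_D12G2681, named 88A1 after an Arabidopsis enzyme that glucosylates quercetin in vitro, averaged 0.206 FPKM in CK roots and 65.6 FPKM in CK leaves. In the opposite direction, Gh_D06G0255 and Gh_A06G0253, with anthocyanidin glucosyltransferase codes, averaged 40.2 and 45.0 FPKM in CK roots against 1.28 and 0.99 FPKM in CK leaves. Gh_A12G0965, with the same code, averaged 9.31 FPKM in CK roots and had no count in any CK leaf library.

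Treatment comparisons used counts scaled to library size (CPM) with TMM factors within a tissue, and each tissue was fitted over its 9 libraries. The FPKM rule applied within a tissue left 160 of the genes tested in root and 201 in leaf, 135 of them in both. A gene near 0 in CK was tested through its treated libraries alone and so had to differ. The counts below, and the changes of genes near 0 in CK, are to be read with that in mind. The rule was applied again whenever a library was left out, so a gene that met it in 3 libraries only could leave the test.

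In roots, 77 genes rose and 44 fell in SAS against CK, or 75.6% of those tested against 56.8% of all genes tested (28.6% higher and 28.3% lower). In AS against CK, 46 rose and 25 fell, or 44.4% against 37.8% of all genes (20.9% higher and 16.9% lower). Between SAS and AS roots, 63 were higher and 25 lower in SAS, or 55.0% against 39.5% (20.6% higher and 18.9% lower). The median log2 change of the family in roots was 0.65 for SAS against CK, 0.10 for AS against CK and 0.61 for SAS against AS, beside -0.06, -0.01 and -0.02 for all genes. With library totals as the only scaling, the median of all genes moved to -0.59 in SAS roots and -0.49 in AS roots. The split was then 67 higher and 57 lower in SAS roots, and 38 higher and 49 lower in AS roots, so the balance in AS roots turned round.

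In leaves, 61 genes rose and 76 fell in SAS against CK, or 68.2% against 53.2% of all genes tested (27.2% higher and 26% lower). In AS against CK, 42 rose and 18 fell, or 29.9% against 20.6% (11.4% higher and 9.18% lower). Between SAS and AS leaves, 40 were higher and 50 lower in SAS, or 44.8% against 40% (20.7% higher and 19.3% lower). The family's median log2 change in leaves was -0.21 for SAS against CK, -0.01 for AS against CK and -0.14 for SAS against AS, beside 0.00, -0.02 and 0.00 for all genes. With all 18 libraries in one fit, SAS against CK leaves had 46 higher and 38 lower and SAS against AS leaves 23 higher and 15 lower. Both balances of calls thus turned round, with fewer genes called. The family's medians stayed below 0 in that fit, at -0.178 and -0.135. The AS count in leaves depended on single libraries: without AS leaf library 1, 2 or 3 it was 29, 57 or 32, and without CK leaf library 1, 2 or 3 it was 31, 31 or 37.

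**Figure D3:**
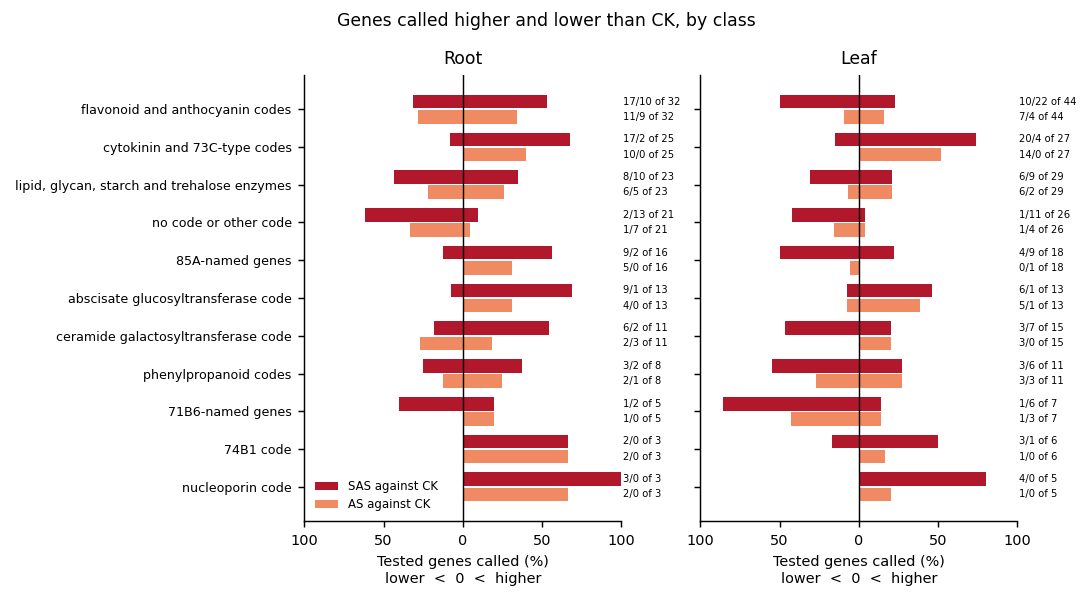
Genes called higher (right of 0) and lower (left of 0) than CK in each class, as a percent of the class's genes tested in root (left panel) and leaf (right panel), for SAS and AS. The numbers give genes higher and lower of those tested: among cytokinin and 73C-type codes 17 were higher and 2 lower of 25 in SAS roots and 20 and 4 of 27 in SAS leaves. With library totals as the only scaling, the flavonoid class in AS roots had 7 higher and 13 lower in place of 11 and 9.

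The medians of the classes, which were not tested against each other, ranged widely. In SAS roots, the median log2 change against CK was 2.27 for cytokinin and 73C-type codes, 2.11 for 85A-named genes, 2.02 for the abscisate code, 1.53 for the ceramide code, 0.87 for flavonoid codes, -0.43 for lipid, glycan, starch and trehalose enzymes and -0.81 for genes with no or another code. With library totals as the only scaling these 7 medians kept their signs, while that of the 8 phenylpropanoid genes went to -0.09 in place of 0.43. In AS roots, the medians of 71B6-named genes, 85A-named genes, the ceramide code and the lipid class were 0.26, 0.03, 0.10 and 0.07, and library totals turned all 4 below 0. In leaves, the SAS medians were 1.24 for cytokinin and 73C-type codes, 0.50 for the abscisate code, -0.56 for flavonoid codes, -0.57 for the ceramide code and -0.97 for 71B6-named genes.

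Most tested genes with cytokinin and 73C-type codes rose in SAS roots and in SAS leaves. The class holds 31 genes, 30 of them with the code of the 73C family, whose Arabidopsis members O-glucosylate cytokinins, brassinosteroids and flavonols. In SAS roots 17 rose and 2 fell of 25 tested, in AS roots 10 rose and 0 fell, and in SAS against AS roots 15 were higher and 2 lower. The shares called were 76%, 40% and 68%, beside 56.8%, 37.8% and 39.5% of all genes. The SAS root count was lower with single libraries left out. Without SAS root library 2 it was 9 higher and 1 lower of 21 tested, and without library 3 it was 10 and 2. Part of the fall is genes that no longer met the FPKM rule and were not tested. With library totals as the only scaling, 13 rose and 3 fell in SAS roots, and 10 rose and 3 fell in AS roots. In leaves 20 rose and 4 fell of 27 in SAS, and 14 rose and 0 fell in AS, a count that was 9 without AS leaf library 1. The leaf shares called were 88.9% and 51.9%, beside 53.2% and 20.6% of all genes.

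The member with the highest level was Gh_A04G0582, on the minus strand of chromosome A04 from 39527707 to 39529098 in the coordinates of the deposited table, for which no build is named. Its CPM was 841, 1052 and 983 in SAS roots, 121, 44.4 and 64.9 in AS roots, against 0.826, 0.822 and 1.15 in CK roots. The groups did not overlap, and the log2 change was 10.00 ± 0.50 (SE) for SAS against CK (adjusted p = 9.6e-07) and 6.36 ± 0.43 for AS against CK (adjusted p = 2e-05). The SE of a log2 change, here and below, is back-calculated from the test's F statistic. In leaves the CPM of Gh_A04G0582 was 152, 180 and 146 in SAS, 130, 135 and 157 in AS and 105, 84.5 and 73.5 in CK. The leaf change of 0.86 ± 0.15 for SAS against CK (adjusted p = 0.0012) was smaller than the root change by 9.32 ± 0.46 on the log2 scale (adjusted p = 1.3e-08 for the difference between tissues).

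Both neighbours of Gh_A04G0582 carry the same code, and Gh_A04G0581 was also higher in SAS roots. Gh_A04G0581, named 73D1, had 227, 336 and 326 CPM in SAS roots, 73.6, 53.6 and 89.2 CPM in AS roots, against 20.9, 36.7 and 30.3 CPM in CK roots. It rose by 3.34 ± 0.30 in SAS roots (adjusted p = 1.7e-05) and by 1.30 ± 0.28 in AS roots (adjusted p = 0.0053), and it was picked for its place beside Gh_A04G0582 after its values were seen. Gh_A04G0583, named 73C2, had 2.71, 3.15 and 3.19 CPM in SAS roots, 0, 0 and 0.311 in AS roots and no count in CK roots. It met the FPKM rule in root only through treated libraries, so its place above CK there is no result. In leaves it was present in every group, with 11.2, 15.7 and 23.4 CPM in SAS, 16.7, 19.7 and 23.4 in AS and 13.6, 10.1 and 6.89 in CK.

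Genes of the class elsewhere in the genome responded in leaf as well. Gh_A04G1260 had 34.2, 39.5 and 41.0 CPM in SAS roots, 6.03, 4.48 and 5.25 in AS roots, against 0.583, 1.13 and 0.42 in CK roots. In leaves it had 33.4, 38.4 and 20.3 CPM in SAS, 7.60, 3.79 and 4.62 in AS and 0.512, 0.376 and 0.54 in CK. Its levels were ordered SAS, AS, CK in both tissues with no overlap, with log2 changes for SAS against CK of 5.74 ± 0.35 in root (adjusted p = 2.3e-06) and 6.01 ± 0.37 in leaf (adjusted p = 1.4e-05).

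Gh_D10G1810, a 73C2 gene, had a different order in leaf. In roots its CPM was 72.2, 62.2 and 75.7 in SAS, 19.3, 8.73 and 10.9 in AS and 0.0648, 0.367 and 0.202 in CK. In leaves it was 8.03, 12.2 and 3.38 in SAS, 26.6, 18.6 and 69.0 in AS and 0.323, 0.125 and 0.127 in CK. SAS was thus above AS in root (log2 difference 2.43 ± 0.38, adjusted p = 0.0012) and below AS in leaf (-2.27 ± 0.54, adjusted p = 0.0094), and the difference between tissues was 4.78 ± 0.75 (adjusted p = 0.00044). AS leaf library 3 was far above the others, and without it the leaf difference was -1.52. Without CK root library 2 the root changes against CK were 8.96 in place of 8.34 for SAS and 6.54 in place of 5.91 for AS.

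Another 73C2 gene, Gh_Sca005010G01, had lower levels. It had 8.82, 8.23 and 17.7 CPM in SAS roots, 2.99, 2.94 and 1.89 in AS roots, against 0.0486, 0.0733 and 0.327 in CK roots. Its leaf CPM was 3.88, 2.94 and 0.9 in SAS, 4.76, 5.11 and 14.1 in AS and no count in CK. Both treated groups lay above CK in each tissue. The gene was tested in each tissue through its treated libraries alone, so this order was largely set by the FPKM rule and is no result. SAS and AS leaves did not overlap, but their difference of -1.63 ± 0.59 did not pass (adjusted p = 0.0606).

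Only 2 genes of the class fell in SAS roots. Gh_D11G3264 had 2.23, 2.13 and 3.7 CPM in SAS roots, 8.49, 10.0 and 9.5 in AS roots, against 6.49, 10.97 and 7.39 in CK roots, a change of -1.63 ± 0.28 for SAS against CK (adjusted p = 0.00077). Gh_A11G2879 had 0.891, 3.44 and 7.41 CPM in SAS roots, 18.8, 17.1 and 17.7 in AS roots, against 11.3, 12.8 and 13.7 in CK roots. SAS root library 3 was nearest to the other groups, and without it the SAS against AS difference was -3.03 in place of -2.19.

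Most tested genes with the abscisate glucosyltransferase code rose in SAS roots, and fewer were called in the other comparisons with CK. The code names the enzyme that links glucose to abscisic acid, the hormone of drought and salt responses. In SAS roots 9 rose and 1 fell of 13 tested, in AS roots 4 rose and 0 fell, and in SAS against AS roots 8 were higher and 1 lower. In leaves 6 rose and 1 fell of 13 in SAS and 5 rose and 1 fell in AS. Against CK, 76.9% were called in SAS roots and 30.8% in AS roots, beside 56.8% and 37.8% of all genes. For SAS and AS leaves the shares were 53.8% and 46.2%, beside 53.2% and 20.6%. Without SAS leaf library 1 the SAS leaf count was 4 higher and 0 lower, and without CK leaf library 1 the AS leaf count was 3 higher and 0 lower. With library totals as the only scaling, 8 rose and 1 fell in SAS roots, and 3 rose and 2 fell in AS roots.

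The largest changes in this class belonged to genes named 73B3. In Arabidopsis, 73B3 and its relative 73B5 are needed for full resistance to Pseudomonas syringae. Gh_D13G0415, on chromosome D13 from 4649301 to 4650674, had 95.5, 121 and 116 CPM in SAS roots, 12.7, 12.2 and 19.0 in AS roots, against 1.85, 1.29 and 2.16 in CK roots. Leaf levels of this gene were 197, 302 and 128 CPM in SAS, 64.9, 46.8 and 60 in AS and 5.10, 5.58 and 5.53 in CK. The 3 groups did not overlap in either tissue, and SAS exceeded CK by 5.97 ± 0.28 in root (adjusted p = 8e-07) and 5.27 ± 0.31 in leaf (adjusted p = 1.2e-05), a difference between tissues that did not pass (0.89 ± 0.38, adjusted p = 0.0748).

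Gh_A13G0371, a 73B3 gene on chromosome A13, was nearer to 0 in CK roots. Its CPM was 87.3, 119 and 113 in SAS roots, 17.3, 9.84 and 26.7 in AS roots, against 0.356, 0.0587 and 0.28 in CK roots. In leaves it was 82.8, 185 and 64.8 in SAS, 33.2, 37.0 and 20.4 in AS and 8.10, 7.77 and 8.45 in CK. The SAS change was 8.85 ± 0.60 in root (adjusted p = 4.2e-06) and 3.77 ± 0.39 in leaf (adjusted p = 8.2e-05), a larger change in root by 5.26 ± 0.69 (adjusted p = 3.5e-05). Of the 5 genes named 73B3, in this class or with the 73C code, 4 were tested in leaf, and all 4 rose in SAS and in AS leaves. In root 3 of 5 rose in SAS and 2 in AS. With 1 library left out, the AS leaf count was 2 to 4 and the SAS root count 2 or 3. The SAS leaf count stayed at 4 and the AS root count at 2. Of all genes, 27.2% rose in SAS leaves, 11.4% in AS leaves, 28.6% in SAS roots and 20.9% in AS roots.

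Genes named 71B6, after the Arabidopsis enzyme that glucosylates abscisic acid, form a class of their own. In SAS leaves 1 rose and 6 fell of 7, and in SAS roots 1 rose and 2 fell of 5 tested. The shares called were 100% and 60%, beside 53.2% and 56.8% of all genes. Gh_A12G0456 had 20.1, 17.9 and 21.7 CPM in SAS leaves, 30.3, 48.3 and 33.0 in AS leaves and 63.0, 65.3 and 66.0 in CK leaves. It fell in SAS leaves by 1.70 ± 0.17 (log2 change -1.70, adjusted p = 5.4e-05) and in AS leaves by 0.80 ± 0.16 (adjusted p = 0.0081), a call lost with all 18 libraries in one fit (adjusted p = 0.23). In roots, at a lower level, it had 0.17, 0.573 and 0.871 CPM in SAS, 5.70, 3.07 and 1.85 in AS and 7.80, 4.03 and 3.45 in CK, with a SAS change of -3.24 ± 0.62 (adjusted p = 0.0016).

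Gh_D12G0459 had 4.28, 6.07 and 7.35 CPM in SAS leaves, 5.92, 8.66 and 7.21 in AS leaves and 13.9, 17.4 and 18.8 in CK leaves, so both treated groups lay below CK, with changes of -1.50 ± 0.22 for SAS (adjusted p = 0.00037) and -1.20 ± 0.21 for AS (adjusted p = 0.0048). With all 18 libraries in one fit the AS call was lost (adjusted p = 0.0523).

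The exception among the 71B6 genes was Gh_D07G1871, on chromosome D07 from 45706714 to 45708162. It had 27.9, 63.7 and 55.1 CPM in SAS roots, 51.0, 69.4 and 18.6 in AS roots, against 2.09, 2.57 and 1.91 in CK roots. SAS and AS roots overlapped and both lay above CK, by 4.48 ± 0.50 (adjusted p = 7.3e-05) and 4.40 ± 0.50 (adjusted p = 0.00024). The leaf libraries held 59.7, 40.8 and 45.5 CPM in SAS, 59.5, 44.2 and 48.9 in AS and 25.6, 29.7 and 29.5 in CK, with changes of 0.78 ± 0.16 for SAS (adjusted p = 0.0023) and 0.85 ± 0.16 for AS (adjusted p = 0.0059).

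Next to it lay Gh_D07G1872, a flavonoid-coded gene with the highest family level in AS roots. Its CPM was 192, 298 and 243 in SAS roots, 406, 599 and 234 in AS roots, against 20.8, 9.21 and 47.9 in CK roots. SAS rose by 3.23 ± 0.58 (adjusted p = 0.0011) and AS by 3.99 ± 0.60 (adjusted p = 0.00095), and the difference between SAS and AS of -0.76 ± 0.53 did not pass (adjusted p = 0.2839). In leaves it had 271, 245 and 228 CPM in SAS, 179, 143 and 173 in AS and 81.3, 89.0 and 90.3 in CK, with SAS above AS by 0.59 ± 0.12 (adjusted p = 0.0054).

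The 85A-named genes had more increases than decreases in SAS roots and the reverse in SAS leaves. A relative of this group, 85A1, glucosylates the cytokinin zeatin in Arabidopsis. Of 16 tested in root, 9 rose and 2 fell in SAS, and 5 rose and 0 fell in AS. The shares called were 68.8% and 31.2%, beside 56.8% and 37.8% of all genes. With library totals as the only scaling, 9 rose and 4 fell in SAS roots, and 5 rose and 2 fell in AS roots. Of 18 tested in leaf, 4 rose and 9 fell in SAS, or 72.2% beside 53.2% of all genes. With all 18 libraries in one fit 3 rose and 1 fell. In AS leaves 0 rose and 1 fell, or 5.56% beside 20.6% of all genes. That call was absent whenever one of 5 libraries was left out, all but AS leaf library 2, without which 2 fell.

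Among the 85A genes, Gh_A05G1932 and Gh_D05G2163 rose in SAS in both tissues. Gh_A05G1932 had 104, 83.2 and 104 CPM in SAS roots, 21.1, 14.4 and 18.9 in AS roots, against 18.1, 15.8 and 20.5 in CK roots. Its leaf CPM was 128, 252 and 137 in SAS, 44.0, 37.0 and 37.8 in AS and 55.6, 51.2 and 49.1 in CK. SAS stood above both other groups, by 2.42 ± 0.19 against CK in root (adjusted p = 9.4e-06) and 1.73 ± 0.23 in leaf (adjusted p = 0.00028), while AS differed from CK by -0.00 ± 0.18 in root (adjusted p = 0.9956) and -0.39 ± 0.23 in leaf (adjusted p = 0.2563).

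Gh_D05G2163 was mainly a root gene. It had 172, 86.0 and 136 CPM in SAS roots, 35.6, 34.7 and 54.9 in AS roots, against 25.9, 24.1 and 27.9 in CK roots. Leaf levels of this gene were 11.4, 30.9 and 10.0 CPM in SAS, 3.52, 1.62 and 2.56 in AS and 3.19, 1.75 and 1.84 in CK. SAS leaves exceeded AS leaves by 2.76 ± 0.47 (adjusted p = 0.0022), and by 2.05 without SAS leaf library 2.

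The pair Gh_D13G0523 and Gh_D13G0524, adjacent 85A2 genes on chromosome D13, was nearly absent from CK roots. Gh_D13G0524 had 7.21, 17.1 and 23.0 CPM in SAS roots, 2.55, 1.99 and 3.52 in AS roots, against 0, 0.161 and 0 in CK roots. The leaf libraries held 10.6, 7.89 and 13.6 CPM in SAS, 19.0, 17.98 and 19.1 in AS and 18.1, 19.2 and 15.5 in CK. It rose in SAS roots (8.08 ± 0.89, adjusted p = 6.3e-05) and fell in SAS leaves (-0.72 ± 0.18, adjusted p = 0.0066), with a difference between tissues of 8.98 ± 0.83 (adjusted p = 1.8e-06). Near 0 in CK roots, Gh_D13G0524 was tested in root through its treated libraries alone, so the rise there was largely set by the FPKM rule.

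In the group of 7 nearby 85A genes on D10, the highest was Gh_D10G2333, named 85A5, with 81.2, 117 and 84.8 CPM in SAS roots, 22.1, 22.2 and 25.2 in AS roots, against 13.3, 23.9 and 27.7 in CK roots. It rose in SAS roots by 2.12 ± 0.27 (adjusted p = 0.00014), whereas AS roots differed from CK roots by 0.10 ± 0.26 (adjusted p = 0.7946). The other 6 genes of the group averaged 0.0622 to 3.06 FPKM in SAS roots and 0.348 to 5.04 FPKM in CK roots, against 55.3 and 18.3 FPKM for Gh_D10G2333.

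The code of 74B1, the Arabidopsis enzyme that glucosylates thiohydroximates in the making of glucosinolates, was carried by 6 genes. Of 3 tested in root, 2 rose in SAS and in AS, or 66.7% in each, beside 56.8% and 37.8% of all genes called. Gh_D01G1313, on chromosome D01 from 36940152 to 36941930, had 179, 179 and 137 CPM in SAS roots, 9.54, 13.5 and 8.88 in AS roots, against 2.07, 2.74 and 3.25 in CK roots. The groups did not overlap, and SAS exceeded CK by 5.94 ± 0.28 (adjusted p = 8e-07) and AS exceeded CK by 1.98 ± 0.23 (adjusted p = 0.00027). In leaves it had 10.1, 12.2 and 5.32 CPM in SAS, 5.09, 2.23 and 4.15 in AS and 1.16, 1.44 and 2.70 in CK, and the SAS change in root exceeded that in leaf by 3.74 ± 0.52 (adjusted p = 5.3e-05).

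The second 74B1 gene that rose was Gh_A01G2104, with 15.5, 32.2 and 22.1 CPM in SAS roots, 2.34, 2.45 and 1.89 in AS roots, against 0.21, 0.22 and 0.264 in CK roots. Its SAS root change was 6.64 ± 0.34 (adjusted p = 1e-06). In leaves it stayed at or below 1.08 CPM in every library. The third gene tested in root, Gh_D07G1979, averaged 54.4 FPKM in SAS roots, 59.1 in AS roots and 61.0 in CK roots.

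**Figure D4:**
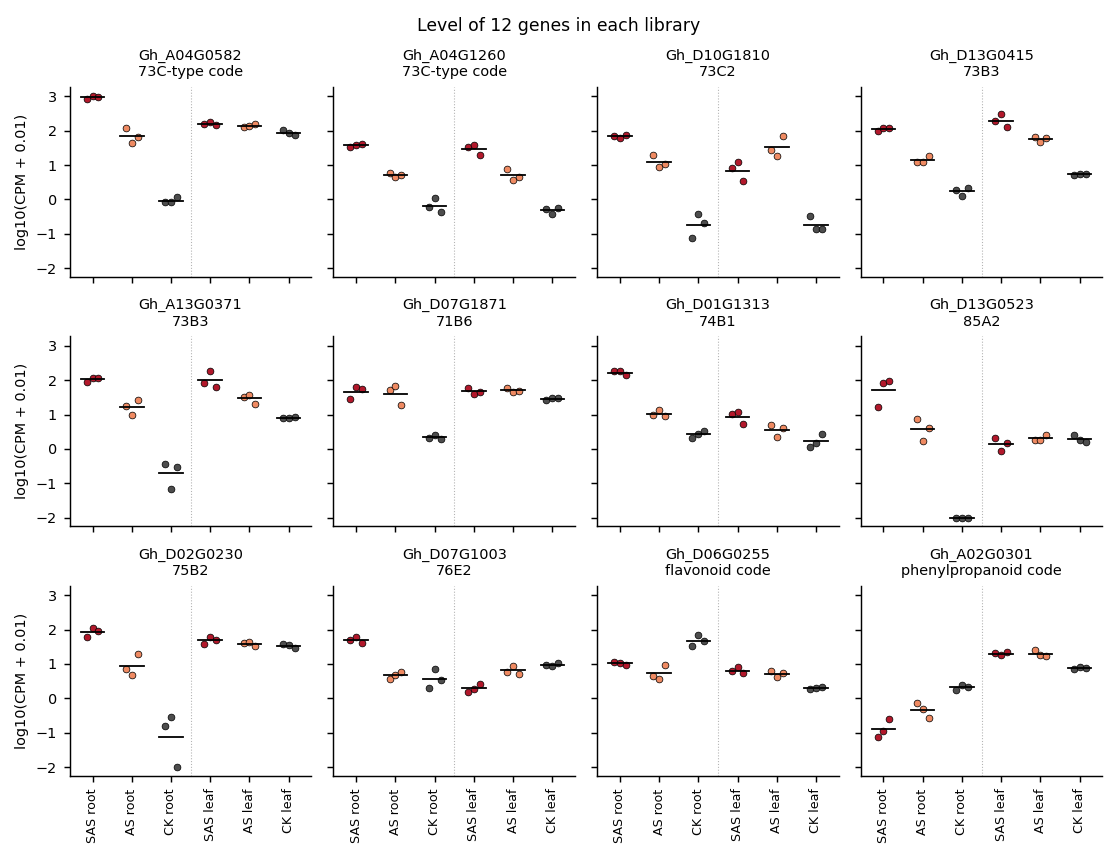
Level of 12 named genes (log10(CPM + 0.01), y axis) in each library of the 6 groups (x axis). Points are libraries and lines are means on that scale: Gh_A04G0582 reaches 841 to 1052 CPM in SAS roots, Gh_D13G0523 has no count in CK roots, and Gh_A02G0301 is highest in treated leaves and lowest in SAS roots.

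Genes with the nucleoporin code included 2 of the most abundant members. Gh_D11G1009 had 249, 466 and 524 CPM in SAS roots, 75.3, 32.6 and 38.4 in AS roots, against 9.25, 8.51 and 5.52 in CK roots. Its leaf CPM was 160, 172 and 150 in SAS, 161, 127 and 132 in AS and 97.1, 122 and 128 in CK. Its SAS change was 5.73 ± 0.46 in root (adjusted p = 1.1e-05) and 0.47 ± 0.14 in leaf (adjusted p = 0.0169), and the difference between tissues was 5.44 ± 0.47 (adjusted p = 8.9e-07).

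Gh_A11G0866, with the same code on A11, had 113, 188 and 239 CPM in SAS roots, 32.9, 16.3 and 23.3 in AS roots, against 14.5, 17.2 and 12.2 in CK roots. SAS rose by 3.62 ± 0.35 (adjusted p = 2.9e-05), and AS overlapped CK (0.72 ± 0.32, adjusted p = 0.0988). Leaf levels of this gene were 181, 158 and 153 CPM in SAS, 151, 126 and 133 in AS and 119, 140 and 148 in CK, and no leaf comparison of it passed. All 3 genes of the class tested in root rose in SAS, and 4 of 5 tested in leaf, a leaf count that was 2 without any 1 of the SAS leaf libraries. Of all genes, 28.6% rose in SAS roots and 27.2% in SAS leaves.

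Among genes with the ceramide galactosyltransferase code, roots and leaves moved apart. In SAS against AS roots 9 were higher and 0 lower of 11 tested, and in SAS against AS leaves 3 were higher and 7 lower of 15. The shares called were 81.8% and 66.7%, beside 39.5% and 40% of all genes. Against CK, 6 rose and 2 fell in SAS roots, and 3 rose and 7 fell in SAS leaves, or 72.7% and 66.7%. Of all genes 56.8% and 53.2% were called there. In AS roots 2 rose and 3 fell, or 45.5% beside 37.8% of all genes. The count of 5 was 3 without CK root library 2, AS root library 1 or AS root library 2. With library totals as the only scaling 0 rose and 5 fell. The response to SAS against AS was higher in root than in leaf for 9 of the 16 genes and lower for 0, or 56.2% beside 27.8% of all genes. For SAS against CK it was higher in root for 8 and lower for 3, or 68.8% beside 40.7% of all genes. For AS against CK it was higher for 2 and lower for 4, or 37.5% beside 26.7%.

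A group of 4 of these genes lay on chromosome D07 between 13501942 and 13669154. For SAS against CK, the split was seen in Gh_D07G1003 and Gh_D07G0995. Gh_D07G1003, named 76E2, had 50.2, 59.3 and 40.8 CPM in SAS roots, 3.76, 4.796 and 5.81 in AS roots, against 1.93, 7.25 and 3.45 in CK roots. The leaf libraries held 1.502, 1.89 and 2.62 CPM in SAS, 5.83, 8.91 and 5.27 in AS and 9.52, 8.82 and 10.6 in CK. It rose in SAS roots (3.57 ± 0.43, adjusted p = 0.00011, and 4.18 without CK root library 2) and fell in SAS leaves (-2.27 ± 0.25, adjusted p = 0.0001).

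Gh_D07G0995, of the same group but not next to Gh_D07G1003, behaved alike in direction. It had 13.7, 18.5 and 13.98 CPM in SAS roots, 2.79, 1.43 and 1.05 in AS roots, against 0.324, 0.117 and 0.98 in CK roots. In leaves it had 0.926, 1.17 and 0.867 CPM in SAS, 2.03, 2.78 and 1.62 in AS and 4.14, 3.31 and 3.16 in CK. The SAS changes were 5.02 ± 0.66 in root (adjusted p = 0.00019, and 6.09 without CK root library 3) and -1.84 ± 0.26 in leaf (adjusted p = 0.00032).

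The other two of the group differed. Gh_D07G1002 had 25.3, 44.8 and 28.3 CPM in SAS roots, 6.07, 4.78 and 9.10 in AS roots, against 19.7, 31.4 and 19.0 in CK roots, so it fell in AS (-1.81 ± 0.32, adjusted p = 0.0021), while its SAS change of 0.49 ± 0.30 did not pass (adjusted p = 0.1955). Gh_D07G1001, the highest of the 4, had 68.3, 54.7 and 66.2 CPM in SAS roots, 26.9, 15.2 and 19.6 in AS roots, against 13.99, 9.04 and 12.0 in CK roots. It rose in SAS roots by 2.43 ± 0.24 (adjusted p = 3.4e-05), and in leaves SAS differed from CK by 0.18 ± 0.12 (adjusted p = 0.2195).

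Gh_A07G1657 showed the pattern of Gh_D07G1002 in root. It had 6.09, 21.9 and 30.3 CPM in SAS roots, 3.55, 1.66 and 1.40 in AS roots, against 9.62, 8.92 and 9.95 in CK roots. AS lay below CK (-2.10 ± 0.53, adjusted p = 0.0126), a call that was lost without AS root library 2 (adjusted p = 0.0536), and below SAS, which exceeded it by 3.14 ± 0.55 (adjusted p = 0.0021).

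The leaf pair with this code was lower in SAS leaves. Gh_D11G0765 had 99.7, 67.7 and 100 CPM in SAS leaves, 211, 216 and 198 in AS leaves and 155, 165 and 170 in CK leaves. It fell by 0.87 ± 0.15 against CK (log2 change -0.87, adjusted p = 0.001) and by 1.23 ± 0.15 against AS (adjusted p = 0.00064). Gh_A11G0653 had 36.2, 36.2 and 53.0 CPM in SAS leaves, 76.5, 79.1 and 92.5 in AS leaves and 64.2, 62.1 and 60.1 in CK leaves. Its SAS changes were -0.57 ± 0.15 against CK (adjusted p = 0.0102) and -0.98 ± 0.15 against AS (adjusted p = 0.0014).

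A gene model beside Gh_D11G0765, Gh_D11G0764 with no code, followed the same order in leaf. It had 3.65, 2.21 and 4.12 CPM in SAS leaves, 10.2, 12.0 and 12.6 in AS leaves and 8.88, 9.98 and 10.3 in CK leaves. The changes of SAS were -1.54 ± 0.21 against CK (adjusted p = 0.00027) and -1.79 ± 0.21 against AS (adjusted p = 0.00052). The 2 genes are neighbours, and reads could be shared between them.

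Flavonoid and anthocyanin codes had calls in both directions in root and more decreases than increases in SAS leaf. The codes belong to enzymes that glucosylate or xylosylate anthocyanidins, and anthocyanidin 3-O-glucosylation gives the stable coloured pigment. In SAS roots 17 rose and 10 fell of 32 tested, and in AS roots 11 rose and 9 fell. The shares called were 84.4% and 62.5%, beside 56.8% and 37.8% of all genes. Without SAS root library 2 the SAS root count was 11 higher and 10 lower. The AS root total of 20 was 13 without CK root library 2, and without AS root library 3 it was 9 higher and 12 lower. In SAS leaves 10 rose and 22 fell of 44, and in AS leaves 7 rose and 4 fell, a total of 11 that was 5 to 7 without CK leaf library 1 or 2 or any 1 of the AS leaf libraries. The leaf shares called were 72.7% in SAS and 25% in AS, beside 53.2% and 20.6% of all genes.

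The 88A1-named genes account for much of the leaf count. Of 12, 11 were tested in leaf, and all 11 fell in SAS leaves, where 26% of all genes did. The median log2 change of the 11 was -1.12. With any 1 library left out, 10 or 11 fell. In AS leaves 0 rose and 2 fell, and 0 or 1 fell with a library left out. Gh_D12G2681 had 46.5, 20.2 and 32.5 CPM in SAS leaves, 63.9, 50.6 and 54.7 in AS leaves and 114, 108 and 92.7 in CK leaves, a SAS change of -1.66 ± 0.25 (adjusted p = 0.0005). Its AS change of -0.89 ± 0.25 passed (adjusted p = 0.0309) and was lost without any 1 of the 6 libraries (adjusted p between 0.0559 and 0.099). Gh_A12G2287 had 4.19, 1.87 and 3.52 CPM in SAS leaves, 7.47, 4.79 and 6.75 in AS leaves and 9.54, 11.4 and 11.01 in CK leaves, a SAS change of -1.73 ± 0.28 (adjusted p = 0.00063).

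Other named genes of the class were also lower in SAS leaves. Gh_D03G0476, named 78D2 after the Arabidopsis flavonoid 3-O-glucosyltransferase, had 3.32, 3.26 and 1.55 CPM in SAS leaves, 4.98, 9.36 and 8.71 in AS leaves and 5.90, 12.1 and 14.98 in CK leaves, a change of -2.02 ± 0.40 (adjusted p = 0.0022). In roots it moved the other way, with 5.22, 9.46 and 8.56 CPM in SAS, 4.91, 4.99 and 5.44 in AS and 2.35, 1.76 and 2.22 in CK, a SAS change of 1.88 ± 0.25 (adjusted p = 0.0002). Gh_D02G2052, named 84B1 after an Arabidopsis enzyme that glucosylates auxin, had 3.83, 2.21 and 5.62 CPM in SAS leaves, 10.2, 16.4 and 14.1 in AS leaves and 8.63, 6.67 and 7.73 in CK leaves. It differed by -1.80 ± 0.30 between SAS and AS leaves (adjusted p = 0.002).

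A few flavonoid-coded genes rose in leaf. Gh_D13G0190 had 114, 127 and 80.2 CPM in SAS leaves, 54.4, 24.97 and 36.6 in AS leaves and 9.28, 10.3 and 10.5 in CK leaves. SAS exceeded CK by 3.42 ± 0.28 (adjusted p = 3.2e-05) and AS exceeded CK by 1.95 ± 0.27 (adjusted p = 0.0016), with no overlap of the 3 groups. In roots it had 47.5, 32.7 and 35.7 CPM in SAS, 6.61, 7.58 and 26.5 in AS and 22.2, 28.9 and 29.9 in CK, and neither comparison with CK passed.

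Among genes of the class with counts in CK roots, the largest root increase was in Gh_D02G0230, named 75B2, whose family relative 75B1 glucosylates benzoates in Arabidopsis. It had 62.4, 110 and 92.5 CPM in SAS roots, 7.01, 4.85 and 19.7 in AS roots, against 0.146, 0.279 and 0 in CK roots. In root it was tested through its treated libraries alone, so its place above CK there was largely set by the FPKM rule. The SAS change was 9.24 ± 0.87 (adjusted p = 2.6e-05), and it was 10.18 without CK root library 2 and 8.63 without library 3. The AS change was 6.17 ± 0.81 (adjusted p = 0.00047), and it was 7.12 without CK root library 2, 5.57 without CK root library 3 and 5.36 without AS root library 3. Its leaf CPM was 37.8, 61.4 and 49.5 in SAS, 41.1, 42.3 and 32.6 in AS and 38.0, 34.4 and 29.7 in CK, a SAS change of 0.54 ± 0.18 (adjusted p = 0.0263).

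Other flavonoid-coded genes fell in treated roots. Gh_D06G0255 had 11.6, 10.4 and 9.39 CPM in SAS roots, 4.39, 3.69 and 9.64 in AS roots, against 33.6, 67.4 and 47.9 in CK roots. It fell by 2.24 ± 0.37 in SAS (log2 change -2.24, adjusted p = 0.0007) and by 3.07 ± 0.39 in AS (adjusted p = 0.00039). Leaf levels of this gene were 6.20, 7.93 and 5.40 CPM in SAS, 6.20, 4.20 and 5.39 in AS and 1.88, 1.97 and 2.19 in CK, and it rose by 1.69 ± 0.20 in SAS (adjusted p = 0.00015) and by 1.38 ± 0.20 in AS (adjusted p = 0.002).

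Gh_A06G0253, a gene with the same code on A06, had 24.6, 32.8 and 26.1 CPM in SAS roots, 14.2, 10.8 and 21.1 in AS roots, against 44.2, 69.6 and 54.9 in CK roots, with changes of -1.01 ± 0.26 for SAS (adjusted p = 0.0077) and -1.87 ± 0.27 for AS (adjusted p = 0.00069). Gh_D03G1111, named 71D1, had 2.38, 1.17 and 0.616 CPM in SAS roots, 1.09, 1.71 and 3.60 in AS roots, against 10.8, 24.7 and 18.6 in CK roots. Its changes were -3.70 ± 0.58 for SAS (adjusted p = 0.00054, and -4.31 without SAS root library 1) and -3.08 ± 0.56 for AS (adjusted p = 0.0026, and -3.68 without AS root library 3). Both genes were higher in CK than in either treated group in every root library.

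Gh_D01G0427, the highest of a group of 4 nearby genes on D01, fell in roots and not in leaves. It had 2.25, 1.82 and 0.467 CPM in SAS roots, 0.773, 0.793 and 1.59 in AS roots, against 10.9, 8.33 and 6.16 in CK roots, with changes of -2.48 ± 0.53 for SAS (adjusted p = 0.0029) and -3.01 ± 0.54 for AS (adjusted p = 0.0023). The leaf libraries held 46.8, 34.2 and 35.5 CPM in SAS, 45.1, 29.7 and 33.9 in AS and 29.9, 30.1 and 34.2 in CK, where AS overlapped both other groups and no change passed.

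The phenylpropanoid codes, of enzymes that glucosylate coniferyl alcohol and sinapate, were carried by 14 genes. In SAS leaves 3 rose and 6 fell of 11 tested (2 and 1 with all 18 libraries in one fit), and in SAS roots 3 rose and 2 fell of 8. The shares called were 81.8% and 62.5%, beside 53.2% and 56.8% of all genes. Gh_D02G0365 had 0.403, 0.348 and 0.658 CPM in SAS roots, 7.12, 5.45 and 2.64 in AS roots, against 9.52, 5.88 and 10.6 in CK roots, a SAS change of -4.20 ± 0.45 (adjusted p = 5.3e-05). In leaves it had 27.4, 27.4 and 31.5 CPM in SAS, 39.7, 47.9 and 42.1 in AS and 45.4, 45.97 and 41.4 in CK, a SAS change of -0.62 ± 0.10 (adjusted p = 0.00079). The difference of its SAS change, root minus leaf, was -3.41 ± 0.44 (adjusted p = 3.2e-05).

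Gh_D12G0625, also with this code, was a leaf gene that fell in both treatments. It had 11.9, 6.72 and 11.5 CPM in SAS leaves, 17.1, 20.5 and 19.5 in AS leaves and 33.4, 34.0 and 28.2 in CK leaves. The groups did not overlap, with changes of -1.66 ± 0.20 for SAS (adjusted p = 0.00014) and -0.74 ± 0.19 for AS (adjusted p = 0.0237), and the AS call was lost when single libraries were left out.

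Gh_A02G0301, with the same code, moved in opposite directions. It had 0.0636, 0.102 and 0.234 CPM in SAS roots, 0.721, 0.494 and 0.253 in AS roots, against 1.70, 2.51 and 2.19 in CK roots, changes of -3.98 ± 0.57 for SAS (adjusted p = 0.00028, and -4.63 without SAS root library 3) and -2.12 ± 0.50 for AS (adjusted p = 0.0088). Its leaf CPM was 20.2, 17.9 and 21.96 in SAS, 25.4, 17.9 and 17.3 in AS and 7.32, 8.35 and 7.75 in CK, with changes of 1.36 ± 0.16 for SAS (adjusted p = 0.00013) and 1.37 ± 0.16 for AS (adjusted p = 0.00082). SAS and AS leaves overlapped, and both lay above CK.

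The lipid, glycan, starch and trehalose enzymes had calls in both directions. In SAS roots 8 rose and 10 fell of 23 tested (78.3%), in AS roots 6 rose and 5 fell (47.8%), and in SAS leaves 6 rose and 9 fell of 29 (51.7%). Of all genes, 56.8%, 37.8% and 53.2% were called in the same order, so the leaf share was close to that of all genes. Without SAS root library 2 or 3 the SAS root count was 8 higher and 6 lower or 7 higher and 6 lower, and with library totals as the only scaling the AS root count was 5 higher and 9 lower. Gh_A03G0978, a trehalose phosphate synthase and phosphatase gene by its code and description, had 89.3, 103 and 109 CPM in SAS roots, 165, 125 and 108 in AS roots, against 142, 166 and 142 in CK roots. It fell in SAS roots (-0.58 ± 0.20, adjusted p = 0.0289). Leaf levels of this gene were 39.1, 48.9 and 49.0 CPM in SAS, 47.7, 62.7 and 64.3 in AS and 91.0, 81.4 and 75.5 in CK, with changes of -0.86 ± 0.14 for SAS (adjusted p = 0.00082) and -0.51 ± 0.14 for AS (adjusted p = 0.0326).

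A starch synthase code was carried by Gh_A09G2368, which had 4.24, 14.2 and 22.6 CPM in SAS roots, 11.5, 9.51 and 22.2 in AS roots, against 1.83, 2.96 and 1.79 in CK roots. The leaf libraries held 2.44, 1.03 and 0.867 CPM in SAS, 13.7, 2.98 and 12.9 in AS and 2.98, 2.58 and 2.46 in CK. It rose in both treatments in root, by 2.64 ± 0.56 in SAS (adjusted p = 0.0031) and 2.71 ± 0.57 in AS (adjusted p = 0.005). In leaf, SAS lay below AS (-2.76 ± 0.56, adjusted p = 0.0046, and -3.37 without SAS leaf library 1).

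Gh_D12G1990, with the code of the enzyme that starts glycosylphosphatidylinositol anchors, fell in SAS roots and rose in SAS leaves. It had 7.64, 11.1 and 11.2 CPM in SAS roots, 23.5, 24.8 and 33.5 in AS roots, against 17.1, 24.1 and 31.2 in CK roots, a SAS change of -1.28 ± 0.25 (adjusted p = 0.0019). In leaves it had 7.65, 12.7 and 8.77 CPM in SAS, 5.45, 6.30 and 4.37 in AS and 6.18, 4.20 and 4.796 in CK, a SAS change of 0.94 ± 0.23 (adjusted p = 0.0063). The remaining opposite movers of this class were under AS: Gh_D11G3185, with a galactolipid synthase code, and Gh_D13G0156, with a mannosyltransferase code, fell in AS roots by 0.93 ± 0.18 and 0.75 ± 0.20 and rose in AS leaves by 0.67 ± 0.17 and 0.40 ± 0.11 (adjusted p between 0.0031 and 0.027). Both leaf calls were lost when single libraries were left out, and the AS root call of Gh_D13G0156 was lost without AS root library 1 (adjusted p = 0.0598) or 2 (adjusted p = 0.0659).

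Genes with no or another code had more decreases than increases. In SAS roots 2 rose and 13 fell of 21 tested, in AS roots 1 rose and 7 fell, and in SAS leaves 1 rose and 11 fell of 26. The shares called were 71.4%, 38.1% and 46.2%, beside 56.8%, 37.8% and 53.2% of all genes. Gh_A12G1819 had 8.87, 10.0 and 10.5 CPM in SAS roots, 20.6, 21.7 and 25.1 in AS roots, against 12.6, 17.3 and 21.6 in CK roots, changes of -0.81 ± 0.20 against CK (adjusted p = 0.0064) and -1.20 ± 0.20 against AS (adjusted p = 0.0017). Gh_A08G0429 had 5.28, 7.06 and 6.71 CPM in SAS roots, 14.6, 13.8 and 10.96 in AS roots, against 13.0, 13.3 and 12.2 in CK roots, a change of -1.01 ± 0.17 against CK (adjusted p = 0.00082). In SAS leaves it also fell (-0.50 ± 0.12, adjusted p = 0.0056).

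Set side by side over the 135 genes tested in both tissues, root and leaf calls for SAS had the same sign more often than opposite signs. The same held for all genes tested in both tissues, where 4833 rose in both, 3123 fell in both and 3320 had opposite calls. In SAS against CK, 34 genes rose in both tissues, which is 53.1% of the 64 that rose in root and 65.4% of the 52 that rose in leaf. Another 16 fell in both, 44.4% of the 36 that fell in root and 43.2% of the 37 that fell in leaf. Opposite calls were made for 18 genes, 12 of them higher in root and lower in leaf. As shares of the 135 genes, 25.2% rose in both, 11.9% fell in both and 13.3% had opposite calls, beside 13.5%, 8.75% and 9.3% of the 35697 genes of the whole table tested in both tissues. In AS against CK, 15 rose in both, 2 fell in both and 4 fell in root and rose in leaf. These are 11.1%, 1.48% and 2.96% of the 135, and among all genes 3.99% rose in both, 2.54% fell in both and 3.38% had opposite calls. Tested in one fit over all 226 genes, the SAS response was higher in root than in leaf for 68 and lower for 35, or 45.6% called against 40.7% of all genes (20.8% higher and 19.9% lower). The AS response was higher for 30 and lower for 31 (27.0%, beside 26.7% of all genes, 14.4% higher and 12.4% lower), and SAS against AS was higher for 49 and lower for 17 (29.2%, beside 27.8% of all genes, 13.9% higher and 14% lower). Scaling by library totals alone moved the median of all genes to -0.75 for SAS and -0.68 for AS, and the splits were 47 higher and 61 lower for SAS and 20 higher and 59 lower for AS.

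**Figure D5:**
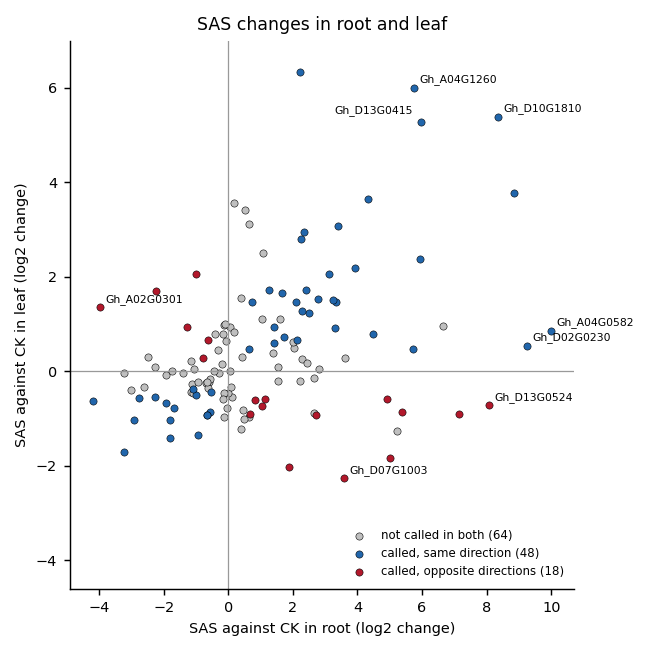
Log2 change of SAS against CK in root (x axis) and leaf (y axis) for 130 genes tested in both tissues, with 5 left out because a group compared had no count. Red points are the 18 genes called in opposite directions, blue points are called in the same direction, and grey points are not called in both; Gh_D07G1003 and Gh_D13G0524 are higher in SAS roots and lower in SAS leaves.

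A number of genes had no count in any CK library of a tissue. In root there were 17, of which 4 met the FPKM rule there and were called higher in SAS. They could meet it only through treated libraries, so their standing above CK was set by the rule and is no result. Gh_D13G0523, named 85A2, had 17.1, 80.0 and 97.0 CPM in SAS roots and 7.28, 1.75 and 3.94 in AS roots, at least 1394-fold and at least 93.1-fold above a floor of 3 counts per CK library. In leaves it was present in all groups, with 2.03, 0.875 and 1.501 CPM in SAS, 1.81, 1.85 and 2.52 in AS and 2.47, 1.75 and 1.60 in CK. Gh_A10G2112, with an anthocyanidin glucosyltransferase code, had 2.16, 3.87 and 4.93 CPM in SAS roots, at least 78.7-fold above the floor. It had 0, 0 and 1.07 CPM in AS roots, where it did not pass (adjusted p = 0.0689).

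Gh_A04G1030, named 73B4, had 2.42, 3.17 and 4.14 CPM in SAS roots and 0.352, 0 and 0.369 in AS roots. Its bounds were at least 69.9-fold for SAS and at least 5.18-fold for AS, and the AS call was lost without AS root library 1 (adjusted p = 0.0528). Gh_A04G0583, beside Gh_A04G0582, was at least 65.0-fold above the floor in SAS roots. All 4 genes had counts in CK leaves. Floors cover counting error only.

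In leaf, 9 genes had no count in CK, and 2 met the FPKM rule, again only through treated libraries. Both were called higher in SAS and in AS, which the rule largely set in advance. Gh_A12G2647, with the ceramide galactosyltransferase code, had 42.8, 57.2 and 9.97 CPM in SAS leaves and 3.27, 7.19 and 2.31 in AS leaves, at least 725-fold and at least 84.2-fold above the floor. In roots it had 17.1, 16.6 and 14.97 CPM in SAS, 1.88, 1.64 and 2.41 in AS and 1.38, 1.55 and 2.61 in CK, a SAS change of 3.13 ± 0.28 (adjusted p = 1.6e-05). Gh_Sca005010G01 was at least 50.9-fold above the floor in SAS leaves and at least 158-fold in AS leaves. Gh_D12G1795, with the same code as Gh_A12G2647 and close to 0 in CK leaves, had 22.6, 42.8 and 9.04 CPM in SAS leaves, 3.56, 5.01 and 0.938 in AS leaves and 0.569, 0.188 and 0.191 in CK leaves. Its SAS change was 6.33 ± 0.83 (adjusted p = 0.00024), and it was 7.04 without CK leaf library 1 and 5.70 without SAS leaf library 2. This gene too was tested in leaf through treated libraries, so its place above CK there was largely set by the rule.

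Genes that supply or remove the sugar were counted beside the family. UDP-glucose pyrophosphorylases make UDP-glucose, and of 9 tested in root, 2 rose and 1 fell in SAS and 4 rose and 1 fell in AS. The shares called were 33.3% in SAS roots and 55.6% in AS roots, beside 56.8% and 37.8% of all genes. In leaf 2 rose and 1 fell in SAS and 5 rose and 0 fell in AS, or 33.3% and 55.6%, beside 53.2% and 20.6% of all genes. Gh_D10G2398, described as UDP-glucose pyrophosphorylase 3, had 14.7, 54.0 and 85.9 CPM in SAS roots and 5.41, 6.38 and 4.84 in CK roots, a change of 3.22 ± 0.53 (adjusted p = 0.00067). Gh_D11G1720, the second isoform, had 37.5, 113 and 254 CPM in SAS roots and 475, 474 and 623 in AS roots, a difference of -1.96 ± 0.57 (adjusted p = 0.0226). That call was lost without SAS root library 2 (adjusted p = 0.0765), and the difference was -2.78 without library 3.

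Of 102 genes of UDP-sugar interconversion, 75 were tested in root and 78 in leaf. In root 24 rose and 14 fell in SAS, and 20 rose and 4 fell in AS, or 50.7% and 32% called, below the 56.8% and 37.8% of all genes. In leaf 29 rose and 12 fell in SAS, and 13 rose and 1 fell in AS, or 52.6% and 17.9%, beside 53.2% and 20.6%. Gh_D11G1628, a reversibly glycosylated polypeptide gene, had 25.1, 16.8 and 19.2 CPM in SAS roots and 0.437, 0.983 and 0.529 in CK roots, a change of 4.96 ± 0.37 (adjusted p = 7e-06). Gh_D01G2048, a UDP-galactose epimerase gene, had 2.44, 4.16 and 1.49 CPM in SAS roots and 17.5, 25.5 and 26.8 in AS roots, a difference of -3.11 ± 0.44 (adjusted p = 0.00083).

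Beta-glucosidases, which can release the sugar again, numbered 36, with 20 tested in root and 22 in leaf. In root 8 rose and 3 fell in SAS, and 5 rose and 2 fell in AS, or 55% and 35% called, close to the 56.8% and 37.8% of all genes. In leaf 7 rose and 3 fell in SAS, or 45.5% beside 53.2%. In AS leaves 0 rose and 0 fell by edgeR's test, 5 had an unadjusted p under 0.05, and DESeq2 called 3. Gh_A13G1209, named beta-glucosidase 41, had 25.03, 25 and 23.6 CPM in SAS roots and 1.02, 2.80 and 3.50 in CK roots, a change of 3.33 ± 0.62 (adjusted p = 0.0014). Gh_D13G1528, named beta-glucosidase 47, had 4.51, 1.99 and 3.69 CPM in SAS leaves and 15.5, 17.0 and 16.7 in CK leaves, a change of -2.27 ± 0.26 (adjusted p = 0.00012).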

How the data were processed

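Poly(A) RNA of roots and leaves was sequenced as paired ends, per the labels' protocols, in 18 libraries. The authors deposited 1 table with whole-number counts per gene and FPKM values for each library, per the file headers. HISAT and StringTie are named, without versions, in the submitters' processing notes. The genome build, the annotation, the use of strand and the treatment of reads shared between copies are not given in the sources used here. All 302270 counts of 0 are listed at an FPKM of 0.0001 in the deposited table. Of counts from 1 to 20, 56.1% to 59.8% were even in each library, and whether read mates were counted separately is not stated. Total counts were 46345805 to 66843791 per library.

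The members, classes and gene lists were chosen with earlier results of these data known. Counts were tested with edgeR 4.0.16 in R 4.3.3 (quasi-likelihood test, TMM scaling, Benjamini-Hochberg adjustment over all genes tested, threshold 0.05). Each tissue was fitted over its 9 libraries, and comparisons between tissues over all 18. A gene was tested when its FPKM was at least 1 in at least 3 of the libraries fitted. The procedure was run on simulated counts with a fixed spread, smaller than that of the root libraries and of all 18. That run is therefore no check of the error rates in these data. Fold bounds for groups with no count use a floor of 3 counts per library, which covers counting error only. The alternatives were median-ratio size factors, library totals, DESeq2 1.42.0, limma 3.58.1 on log2(FPKM + 1) and log2(FPKM + 0.1), no filter, an FPKM filter of 5, other sets of libraries, a replicate block and leaving out each library. Figures were drawn with Matplotlib 3.10.9.

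Genes named in the text were those with the 5 largest changes in each direction per treatment comparison (called, no overlap of libraries, mean FPKM of at least 5 in the higher group), the 8 with the highest mean FPKM, those called and at 0 in CK, up to 6 called in opposite directions in root and leaf, those with the 3 largest differences in each direction between tissues, the highest of each group of 4 or more neighbours, and 3 on each side of the FPKM rule. For the differences between tissues, a gene had to be called and to have a mean FPKM of at least 5 in some group. Of the UDP-sugar and beta-glucosidase lists, the gene with the largest change per comparison was eligible. Gh_A04G0581 and Gh_D07G1979 fall outside this rule and were chosen after their values were seen.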

Additional observations from a re-analysis of the deposited data

Results flagged for a closer look

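The response to treatment differed between root and leaf in the genes below, each tested as a difference of log2 changes (root minus leaf) in one edgeR quasi-likelihood fit over all 18 libraries, with adjusted p under 0.05. They are the 3 largest called differences in each direction per comparison among genes with a mean FPKM of at least 5 in some group. Larger differences in genes of lower level are not listed.

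For AS against CK, the change was larger in root by 6.10 in Gh_D02G0230 (adjusted p = 0.00013) and by 5.78 in Gh_A04G0582 (adjusted p = 1.5e-06). For SAS against CK it was larger in root by 9.32 in Gh_A04G0582 (adjusted p = 1.3e-08), and the difference was -5.17 in Gh_A02G0301 (adjusted p = 2.4e-06). For SAS against AS the differences were -2.77 in Gh_D02G0365 (adjusted p = 0.00052), -2.71 in Gh_A12G1819 (adjusted p = 0.0005) and -2.34 in Gh_D12G0458 (adjusted p = 0.0082).

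The other genes had no count in all libraries of at least 1 group compared, so their fitted differences depend on the prior count and are no measure of size. For AS against CK they were 11.32 in Gh_D13G0523, -10.50 in Gh_A12G2647, -7.38 in Gh_Sca005010G01 and -5.92 in Gh_D12G2682. For SAS against CK they were 15.78 in Gh_D13G0523, 10.25 in Gh_A04G0583, -10.48 in Gh_A12G2647 and -6.56 in Gh_A12G0965. The value for Gh_A12G0965 was -2.57 without SAS leaf library 3 and no longer passed (adjusted p = 1). For SAS against AS they were 9.37 in Gh_D12G2682 and 9.16 in Gh_A11G1200, which both had no count in AS roots. Gh_A04G0583, at 5.23 for SAS against AS, had 1 AS root library with counts.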

How the results depend on the processing

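Of 128 results on named genes, 105 kept their direction and side of the threshold under every alternative run. Over all genes and alternatives, 2010 of 2078 values did so, 67 kept the direction and lost the call, and 1 reversed: the AS response of Gh_D12G2682, root minus leaf, was 0.23 with limma on log2(FPKM + 1), and the cause was not tested. With the FPKM filter at 5, fewer genes were tested, and 44 members were called for AS against CK, 67 for SAS against CK and 47 for SAS against AS in root. With all 18 libraries in one fit, the leaf counts were 22 for AS against CK, 84 for SAS against CK and 38 for SAS against AS, and the cause was not tested.

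In each fit with a library left out, the FPKM rule was applied again, so part of the change in counts is genes not tested. Without SAS root library 1, 2 or 3, the members tested were 147, 145 or 147 in place of 160. With 1 library left out, the calls ranged in root from 58 to 78 for AS against CK, 95 to 108 for SAS against CK and 64 to 92 for SAS against AS. In leaf they ranged from 29 to 57, 119 to 140 and 67 to 93 in the same order. For the differences between tissues they ranged from 50 to 74 for AS against CK, 87 to 105 for SAS against CK and 49 to 75 for SAS against AS, and for CK root against CK leaf from 156 to 168.

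As a share of summed FPKM, the family held 0.3259% in SAS roots, 0.1516% in AS roots and 0.15% in CK roots, and 0.3217% in SAS leaves, 0.3026% in AS leaves and 0.2626% in CK leaves. Without the trehalose genes the share of counts was 0.1884% in AS roots, 0.1602% in CK roots, 0.3798% in AS leaves and 0.3231% in CK leaves.

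Libraries with the same number did not deviate together: correlations lay between -0.098 and 0.053 in root and between -0.132 and 0.126 in leaf, so the numbers were not taken as pairs. With a replicate block the calls were 67 for AS against CK, 117 for SAS against CK and 81 for SAS against AS in root, and 42, 134 and 85 in the same order in leaf. For the differences between tissues they were 56, 97 and 60, and for CK root against CK leaf 143. The block ended the call of 4 named results. Depth limits what can be said of genes with no count in a group to the bounds given.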
